A study of Mus musculus with 12 samples.

Results

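Amino acid transporters are membrane proteins that move amino acids across the surface of the cell or of its organelles. The genes described here are those of the Slc1, Slc3, Slc6, Slc7, Slc36, Slc38 and Slc43 families of solute carriers, found as all probes whose annotated symbol is one of these family names followed by a member number. Slc6a8, a creatine carrier, and Slc7a11, the cystine and glutamate exchanger, were left out by the same rule. The array holds 76 probes of 52 such genes among its 25697 probes, whose named ones stand for 16593 genes. A probe was taken as detected when its detection p-value was under 0.05 on at least 4 of the 12 arrays, and 34 probes of 28 genes passed. The other 24 genes did not.

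The arrays measured total RNA of normal colon from ApcMin mice, which form polyps in the intestine because 1 allele of Apc, a tumour suppressor gene, is truncated. All groups carry this allele and no wild-type mice were included. The mice ate a methyl sufficient diet, the control, or a methyl deficient diet for 11 weeks. By their labels, 4 arrays come from sufficient animals 1 and 3 and 8 arrays from deficient animals 1 to 4, at 2 samples an animal. The labels give neither age nor sex, and they do not say which methyl donors were removed. Methyl donors such as methionine, choline, betaine and folate feed the cell's methylation reactions, and the series asks how their lack affects gene expression in the colon.

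In the gut, carriers of the brush border take amino acids up from the lumen, often together with sodium or protons, and a second set on the basolateral side passes them on to the blood. Many carriers exchange an amino acid inside the cell for another outside it. The light subunits of the Slc7 family reach the membrane only when joined to a heavy subunit, Slc3a1 or Slc3a2. Methionine enters cells through several carriers of neutral amino acids, among them Slc6a19, Slc7a5 and Slc38a2, and betaine enters through Slc6a12. The colon wall also holds nerve, muscle and connective tissue cells, and some Slc1 and Slc6 members are best known from neurons and glia.

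Values are normalised log2 signals, on which a step of 1 is a doubling, and a difference is deficient minus sufficient. A probe was called when limma's p, adjusted by Benjamini-Hochberg over the 13497 detected probes of the array, was under 0.05. Levels of different probes cannot be set against each other, so only differences are compared between genes. Median signals before normalisation ran from 59.4 to 71.5 per array, and 12609 to 13241 probes were detected per array. By the Y-linked genes Eif2s3y and Kdm5d, the 2 samples of 4 labelled animals (both sufficient animals and deficient animals 3 and 4) were of opposite sex, so their averages do not each describe 1 mouse. Every comparison is therefore given with the labelled animals and with sex-matched pairs, in which the arrays of these 4 animals were rejoined by sex within their diet. The differences are the same for both, and their errors are not. The sufficient diet then has 1 male and 1 female pair, and the deficient diet has animals 1 and 2, both male, a rejoined male pair and a female pair. SDs of labelled animals do not measure the spread between mice, nor is it known that a rejoined pair is 1 mouse. An average of a male and a female array can hide such spread. Errors and p-values with labelled animals can therefore be too small.

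With the labelled animals, 5 of the 34 detected transporter probes passed the threshold (14.7%), against 10.8% of all detected probes. Higher were 3 of the 34, against 5.3% of all probes, and lower were 2, against 5.51%. They belong to 4 of the 28 genes. Slc7a9, a carrier of cystine and basic amino acids, fell on both of its detected probes. Slc6a12, Slc6a19 and Slc1a1 rose. With the sex-matched pairs 0 of the 34 probes passed in limma, against 0.282% of all probes; 5 had an unadjusted p under 0.05 there, and 9 did with the labelled animals. For comparison, 15% and 28.7% of all probes did. With sex as a covariate 0 of the 34 passed, against 0.0519% of all probes. The number of calls with labelled animals moved with single animals, for the carriers as for the whole array. None of the 34 probes passed without sufficient animal 1 (0.726% of all probes did) or without sufficient animal 3 (0.645%). In both of these fits 1 sufficient animal is left, which is assumed to vary like the deficient ones. The differences themselves moved little there: Slc7a9 was at -1.12 in both, Slc6a12 at 0.65 and 0.59, Slc6a19 at 0.57 and 0.62, and Slc1a1 at 0.31 and 0.41. Without deficient animal 3, 3 probes passed (7.43% of all probes), 2 without deficient animal 4 (7.88%), 5 without deficient animal 1 (8.61%) and 6 without deficient animal 2 (15.3%). These were not always the same probes, though Slc6a12 and Slc6a19 passed each time. Both Slc7a9 probes were lost without deficient animal 4 (limma adjusted p 0.0585 and 0.0535). The brighter of them was also lost without deficient animal 3 (0.0627). Slc1a1 passed only without deficient animal 2 (0.0419), where Slc7a5 joined. Without deficient animal 1, Slc6a7 joined (0.0317).

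Over all 34 probes, 17 differences were above 0 and 17 below, while 51.2% of all probes lay above 0. The median difference was 0.0004, against 0.006 over all probes. The median size of the difference, whatever its direction, was 0.195 against 0.156. Differences larger than 0.5 were found for 4 of the 34 probes (11.8%), and for 9.32% of all probes. For 13 probes every labelled animal of one diet lay above every one of the other, which is 38.2% against 42.6% of all probes. The sex-matched pairs did not overlap for 5 probes, or 14.7% against 25%, and these were both probes of Slc7a9 and those of Slc1a1, Slc6a12 and Slc43a2. The share of calls was near the background, and none of these counts is read as particular to the carriers.

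**Figure D1:**
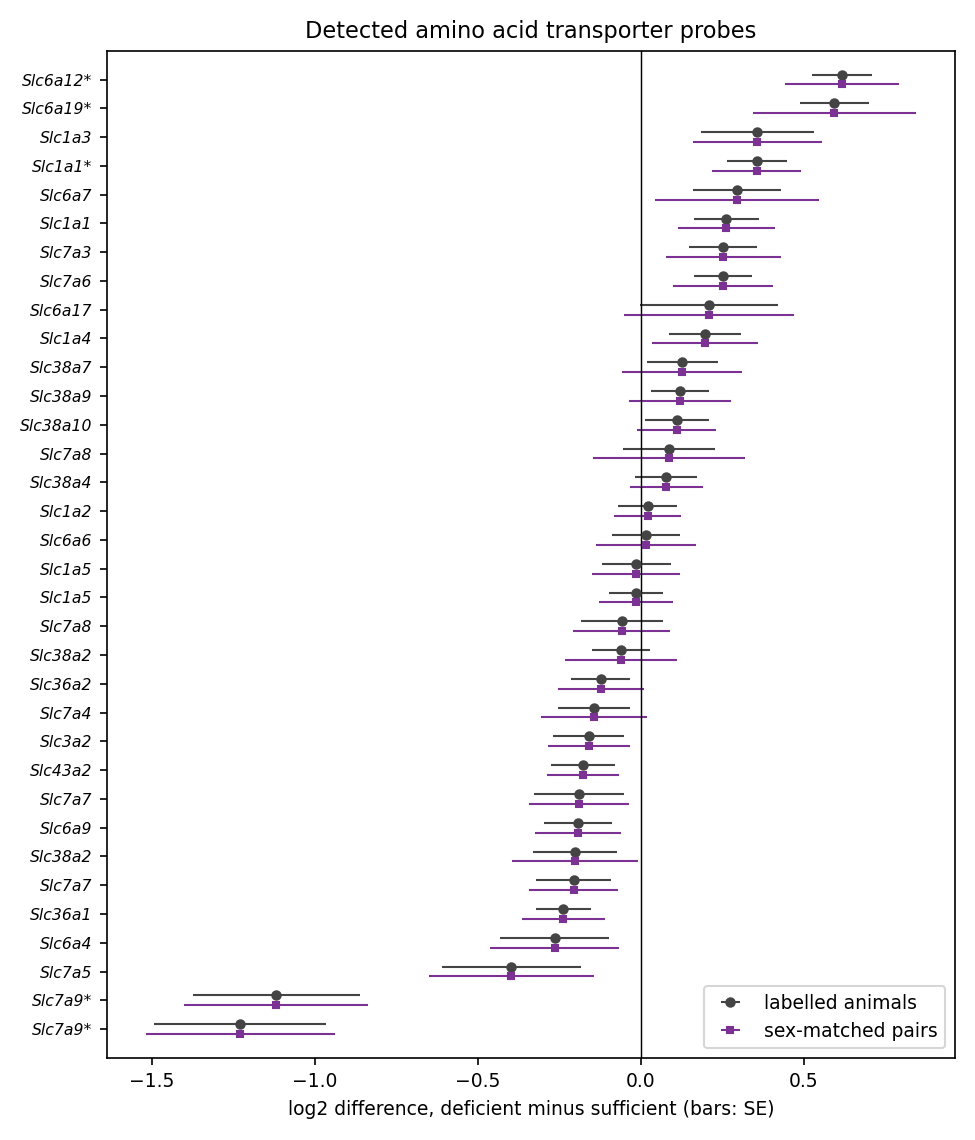
Log2 differences between the diets (deficient minus sufficient, horizontal axis) for the 34 detected transporter probes, ordered by size, with the SE from the labelled animals and from the sex-matched pairs. Asterisks mark an adjusted p under 0.05 with labelled animals. The Slc7a9 probes lie apart on the left at -1.12 and -1.23, and most other probes lie near 0. The SE was larger with sex-matched pairs for 34 of the 34 probes, and for 13021 of all 13497 detected probes.

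The promoters of the 4 called genes are shown because the diets differ in methyl donors and the dinucleotide CG is where DNA methylation is found in mammals. DNA methylation was not measured here. Each sequence is a 300-base window around an annotated transcription start (RefSeq, GRCm38.p6), printed 5′ to 3′ on the strand of the gene, with every CG in capitals. The Slc1a1 window lies at chr19:28834885-28835184 on the plus strand, the Slc6a19 window at chr13:73692587-73692886 on the minus strand, the first of 5 Slc6a12 windows at chr6:121342324-121342623 on the plus strand, and the first of 2 Slc7a9 windows at chr7:35448842-35449141 on the plus strand.
Slc7a9: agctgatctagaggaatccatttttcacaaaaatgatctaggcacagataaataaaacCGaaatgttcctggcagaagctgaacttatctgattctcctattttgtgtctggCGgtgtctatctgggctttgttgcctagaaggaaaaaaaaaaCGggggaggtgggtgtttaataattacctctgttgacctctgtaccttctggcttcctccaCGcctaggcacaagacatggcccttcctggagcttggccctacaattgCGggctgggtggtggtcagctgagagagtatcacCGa
Slc6a19: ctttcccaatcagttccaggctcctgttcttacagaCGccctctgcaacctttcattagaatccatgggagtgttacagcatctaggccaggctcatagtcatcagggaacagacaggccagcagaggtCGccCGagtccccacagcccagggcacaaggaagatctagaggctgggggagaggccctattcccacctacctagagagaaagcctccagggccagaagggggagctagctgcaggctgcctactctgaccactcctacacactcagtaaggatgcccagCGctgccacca
Slc6a12: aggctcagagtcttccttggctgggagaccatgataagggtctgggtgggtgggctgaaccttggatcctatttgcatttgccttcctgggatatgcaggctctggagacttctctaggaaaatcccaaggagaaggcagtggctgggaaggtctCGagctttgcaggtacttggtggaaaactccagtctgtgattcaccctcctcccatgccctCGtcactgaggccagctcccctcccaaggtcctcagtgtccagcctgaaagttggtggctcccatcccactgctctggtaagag
Slc1a1: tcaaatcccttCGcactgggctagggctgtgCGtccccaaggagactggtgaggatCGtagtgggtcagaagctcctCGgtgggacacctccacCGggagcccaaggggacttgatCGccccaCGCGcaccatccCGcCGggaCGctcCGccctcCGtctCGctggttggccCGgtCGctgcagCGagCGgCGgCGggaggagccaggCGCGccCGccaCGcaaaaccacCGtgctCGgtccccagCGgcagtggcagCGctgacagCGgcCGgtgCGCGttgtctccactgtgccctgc

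The Slc1a1 window holds 32 CG, and 91.4% of the 32841 windows of the table hold as few or fewer. The windows of the other 3 genes hold fewer. The Slc6a12 window shown holds 2 (23.3% of windows have as few or fewer) and the other windows of this gene up to 5 (43.6%). The Slc6a19 window holds 4 (38.0%) and both Slc7a9 windows hold 6 (47.9%). For the 37 windows of the 21 detected transporter genes in the table the median was 10 CG, against 7 over all windows. A search on both strands for TGATGNAA, the core of the amino acid response element bound by Atf4, matched 3 of these 37 windows (8.1%) and 4.0% of all windows. The matches were in Slc1a4 and in 2 overlapping windows of Slc7a7, a gene with 5 of the 37 windows. The share by window therefore counts Slc7a7 more than once. GTTAAT, a half-site of the epithelial factor Hnf1, matched 2 of the 37 (5.4%), in Slc36a1 and Slc7a7, and 7.1% of all windows. Neither motif is in a window of Slc7a9, Slc6a19, Slc6a12 or Slc1a1. A match describes letters in a window and nothing about binding.

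Carriers known from the brush border are described first. Slc7a9 is the light subunit that takes up cystine and the basic amino acids in exchange for neutral ones, and it is mutated in cystinuria in humans. No probe of the array was annotated to its heavy subunit, Slc3a1. On the probe with the higher signal, Slc7a9 read 9.16 and 9.33 on the arrays of sufficient animal 1 and 9.33 and 9.15 on those of sufficient animal 3. On the deficient diet it read 8.66 and 8.77 in animal 1, 8.21 and 8.33 in animal 2, 7.85 and 7.69 in animal 3, and 7.55 and 7.93 in animal 4. Each of the 8 deficient arrays lay below each of the 4 sufficient ones, which was the case in either direction for 6.33% of all probes.

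The Slc7a9 difference was -1.12, or 2.17-fold lower on the deficient diet, with an SE of 0.26 and a limma adjusted p of 0.0320 with labelled animals. The pairs gave an SE of 0.28 and an adjusted p of 0.157. A second detected probe of Slc7a9 gave -1.23 (2.34-fold lower, adjusted p 0.0255 and 0.140), again without overlap of arrays, and one more probe was detected on 3 arrays and not tested. Before normalisation, the signal of the first probe ran from 569.5 to 678.5 on the sufficient arrays and from 209.3 to 506.0 on the deficient ones. By sex, the Slc7a9 difference was -0.86 over male arrays and -1.71 over female arrays. The deficient arrays were spread widely: the animal or pair means ran from 8.71 in deficient animal 1 to 7.62 in the female pair, while the sufficient pairs were at 9.15 and 9.33. In these pieces of colon, fewer cells of a type and less RNA per cell cannot be told apart.

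Slc6a19 is the main sodium-coupled carrier of neutral amino acids, methionine among them, in the brush border of the small intestine and kidney, and it is mutated in Hartnup disorder in humans. It read 5.59 and 6.41 in sufficient animal 1 and 6.26 and 5.85 in sufficient animal 3. On the deficient diet it read 6.49 and 6.49 in animal 1, 6.78 and 6.86 in animal 2, 6.89 and 6.25 in animal 3, and 6.16 and 7.04 in animal 4. The lowest deficient arrays, both female, lay below the highest sufficient array, also female. Before normalisation, Slc6a19 ran from 73.1 to 101 on the sufficient arrays and from 96 to 168.6 on the deficient ones. These are low signals, as the array medians were 59.4 to 71.5. The difference was 0.59, 1.51-fold higher on the deficient diet, with an SE of 0.11 and an adjusted p of 0.0138 with labelled animals. The pairs gave an SE of 0.25 and an adjusted p of 0.327. The Slc6a19 difference was 1.04 over male arrays and -0.13 over female arrays.

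Slc1a1, a carrier of glutamate, aspartate and cysteine in the brush border and in neurons, read 8.85 and 9.59 in sufficient animal 1 and 9.38 and 9.26 in sufficient animal 3. On the deficient diet it read 9.66 and 9.71 in animal 1, 9.45 and 9.76 in animal 2, 9.48 and 9.54 in animal 3, and 9.70 and 9.72 in animal 4. A single sufficient array, at 8.85, lay far below the others, and the highest sufficient array overlapped the deficient ones. The Slc1a1 difference was 0.36 (1.28-fold), with an SE of 0.09 and an adjusted p of 0.0459 with labelled animals, and an SE of 0.14 and an adjusted p of 0.291 with sex-matched pairs. Its second probe moved the same way, by 0.26, and did not pass (adjusted p 0.133 and 0.443). Without the sufficient male pair, which holds the low array, the difference of the first probe was 0.14.

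Slc6a12 carries betaine and GABA together with sodium and chloride, and its role as a carrier of betaine, an osmolyte and methyl donor, is best known from the kidney. It read 6.31 and 5.82 in sufficient animal 1 and 5.70 and 6.32 in sufficient animal 3. On the deficient diet it read 6.68 and 6.75 in animal 1, 6.65 and 6.68 in animal 2, 6.45 and 6.98 in animal 3, and 6.58 and 6.45 in animal 4. No deficient array was as low as the highest sufficient one. Before normalisation, Slc6a12 ran from 75.8 to 121.2 on the sufficient arrays and from 118.7 to 147 on the deficient ones. These signals too are low against the array medians of 59.4 to 71.5. The Slc6a12 difference was 0.62, or 1.53-fold, with an SE of 0.09 and an adjusted p of 0.00739 with labelled animals, and an SE of 0.18 and an adjusted p of 0.195 with sex-matched pairs. Within the sufficient diet the male arrays were the high ones and the female arrays the low ones. The difference was 0.30 over male arrays and 1.02 over female arrays.

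**Figure D2:**
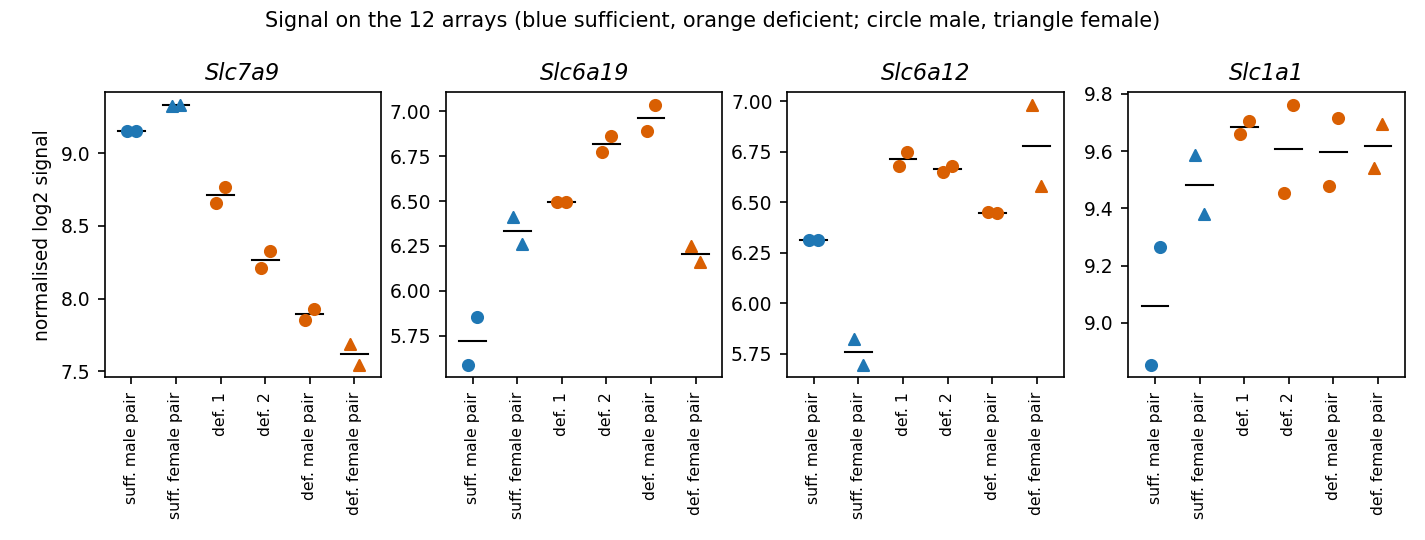
Normalised log2 signal (vertical axes, each with its own range) of Slc7a9, Slc6a19, Slc6a12 and Slc1a1 on the 12 arrays, by sex-matched pair. Points are arrays, circles male and triangles female, blue sufficient and orange deficient, and lines are the means of the 2 arrays. Slc7a9 and Slc6a12 do not overlap between the diets, and the female deficient arrays of Slc6a19 lie among the sufficient ones.

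The remaining 24 detected genes did not pass with either pairing. Of these, 13 were higher and 11 lower on the deficient diet, from -0.40 for Slc7a5 to 0.36 for Slc1a3, and 15 lay within 0.2 of 0. Their adjusted p-values in limma ran from 0.106 to 0.939 with labelled animals and were at least 0.414 with sex-matched pairs. The median SE was 0.10 and 0.15, so differences of this size were not resolved with these 6 units.

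The exchangers of large neutral amino acids are Slc7a5 and Slc7a8, which pair with the heavy subunit Slc3a2. Slc7a5, which supplies leucine and methionine to dividing cells and to mTORC1, read 8.97, 8.20, 8.44 and 8.52 on the sufficient arrays and 7.52 to 8.77, with a median of 8.04, on the deficient ones. Its difference was -0.40, the lowest of the 24, with adjusted p-values of 0.260 and 0.489. Deficient animal 2, at 8.66, lay above both sufficient animals as labelled (8.58 and 8.48), and the other 3 deficient animals lay at 7.77 to 8.08. Those sufficient averages mix the sexes. With sex-matched pairs, deficient animal 2, which is male, lay below the sufficient male pair at 8.74 and above the female pair at 8.32. Without deficient animal 2 the Slc7a5 difference was -0.57, with an adjusted p of 0.0164 with labelled animals and of 0.308 with pairs. Leaving out deficient animal 1, 3 or 4 in place of it gave limma adjusted p-values of 0.394, 0.368 and 0.376 with labelled animals. Slc7a5 passed in 1 of the 16 alternatives to the labelled animals, so that omission is no call.

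Slc7a8 read 7.38, 6.96, 7.18 and 6.63 on the sufficient arrays and 6.35 to 7.71, with a median of 7.18, on the deficient ones, and its 2 probes disagreed in sign (0.09 and -0.06). Slc3a2, whose product is a subunit of most of the Slc7 exchangers, was detected on only 4 arrays, 2 of each diet. It read 4.71, 5.51, 4.99 and 5.48 on the sufficient arrays and 4.73 to 5.39, with a median of 5.01, on the deficient ones, a difference of -0.16 (adjusted p 0.371 and 0.576) near the detection limit. Slc43a2, a carrier that lets large neutral amino acids leave epithelial cells, was detected on 5 arrays by 1 probe and on 0 arrays by another. Its sex-matched pairs lay at 5.25 and 5.27 on the sufficient diet and at 4.99 to 5.17 on the deficient diet, without overlap, for a difference of -0.18 (adjusted p 0.276 and 0.480).

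Slc7a7, the basolateral light subunit that exports basic amino acids and is mutated in lysinuric protein intolerance in humans, read 8.19, 8.11, 8.24 and 8.002 on the sufficient arrays. On the deficient arrays it read 7.59 to 8.18 with a median of 7.95. Its difference was -0.21 (adjusted p 0.279 and 0.504) and -0.19 on its second probe. The related Slc7a6 was detected on 1 sufficient and 6 deficient arrays and differed by 0.25 (adjusted p 0.106 and 0.471). Slc7a3, a carrier of basic amino acids, was detected on no sufficient array and on 5 of the 8 deficient arrays. Another probe of Slc7a3 was detected on 0 arrays and not tested. Slc7a3 passed the detection filter through deficient arrays alone and Slc7a6 mainly through them, so the filter itself favoured a rise in both. It read 5.07, 4.92, 5.16 and 4.91 on the sufficient arrays and 4.88 to 5.57, with a median of 5.37, on the deficient ones. Its difference was 0.25 (adjusted p 0.158 and 0.527), and the rejoined deficient male pair, at 4.90, was as low as the sufficient diet. Slc7a4, a member of the same branch of the family, differed by -0.14.

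Among the proton-coupled carriers of small amino acids, Slc36a1, found on lysosomes and the brush border, read 7.56, 6.95, 7.21 and 7.16 on the sufficient arrays and 6.81 to 7.20, with a median of 6.96, on the deficient ones. The difference was -0.24 (adjusted p 0.108 and 0.414), and the arrays overlapped. Slc36a2 was detected on 10 arrays and differed by -0.12.

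The Slc38 family carries glutamine and other small neutral amino acids. Slc38a2, which cells raise when amino acids run short, read 11.13, 10.98, 10.95 and 11.28 on the sufficient arrays and 10.78 to 11.42, with a median of 10.95, on the deficient ones. Its difference was -0.06 on this probe and -0.20 on the second, neither past the threshold. Slc38a9, the lysosomal arginine sensor of mTORC1, differed by 0.12, the lysosomal carrier Slc38a7 by 0.13, Slc38a10 by 0.11 and Slc38a4 by 0.08. Other probes of Slc38a2 and Slc38a9 were detected on 0 arrays. The sufficient diet itself was split for Slc38a7, at 6.57 in the male and 5.88 in the female pair, and for Slc38a9, at 6.44 and 5.91.

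Of the Slc1 carriers of acidic and small neutral amino acids, Slc1a3, the glutamate carrier of glia, had the largest rise in value that did not pass. It read 7.22, 6.70, 6.86 and 6.97 on the sufficient arrays and 6.90 to 7.82, with a median of 7.21, on the deficient ones. The difference was 0.36 (adjusted p 0.219 and 0.427). Deficient animal 2, at 7.69, was the highest unit, and deficient animal 1, at 7.01, lay below the sufficient male pair at 7.09. Slc1a5, the glutamine carrier of dividing cells, was detected on 1 sufficient and 4 deficient arrays. It read 5.22, 5.19, 5.51 and 4.99 on the sufficient arrays and 4.91 to 5.44, with a median of 5.25, on the deficient ones, a difference of -0.02, and its second probe gave -0.01. Slc1a4, a carrier of alanine and serine, differed by 0.20 and Slc1a2, the main glutamate carrier of brain astrocytes, by 0.02. The Slc1a2 signal was low, at 69.1 to 88.5 on the deficient arrays before normalisation, and other probes of this gene were detected on 0 arrays.

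None of the following Slc6 carriers passed. Slc6a6, the taurine carrier, read 11.58, 11.89, 11.96 and 11.53 on the sufficient arrays and 11.53 to 12.06, with a median of 11.75, on the deficient ones, a difference of 0.02 (adjusted p 0.939 and 0.972). Slc6a9, a glycine carrier, read 8.88, 8.82, 8.74 and 9.01 on the sufficient arrays and 8.37 to 8.89, with a median of 8.68, on the deficient ones, a difference of -0.19 (adjusted p 0.262 and 0.512). Slc6a4 takes up serotonin, which the gut makes from tryptophan. It read 8.44, 8.49, 8.59 and 8.46 on the sufficient arrays and 7.71 to 8.59, with a median of 8.30, on the deficient ones, a difference of -0.27 (adjusted p 0.341 and 0.556). Deficient animal 2, at 7.81, was the lowest unit, and the rejoined deficient male pair, at 8.18, also lay below the sufficient pairs at 8.45 and 8.54. Deficient animal 1 was at 8.42 and the deficient female pair at 8.51. Slc6a7, a proline carrier known from brain, read 7.28, 6.28, 6.52 and 6.95 on the sufficient arrays and 6.54 to 7.61, with a median of 7.10, on the deficient ones. The difference was 0.29 (adjusted p 0.195 and 0.605), and without deficient animal 1 it was 0.40 with an adjusted p of 0.0317 with labelled animals and of 0.607 with pairs. Leaving out deficient animal 2, 3 or 4 gave limma adjusted p-values of 0.242, 0.321 and 0.305 with labelled animals. Slc6a7 passed in 1 of the 16 alternatives to the labelled animals. Slc6a17, a carrier of synaptic vesicles, differed by 0.21.

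**Figure D3:**
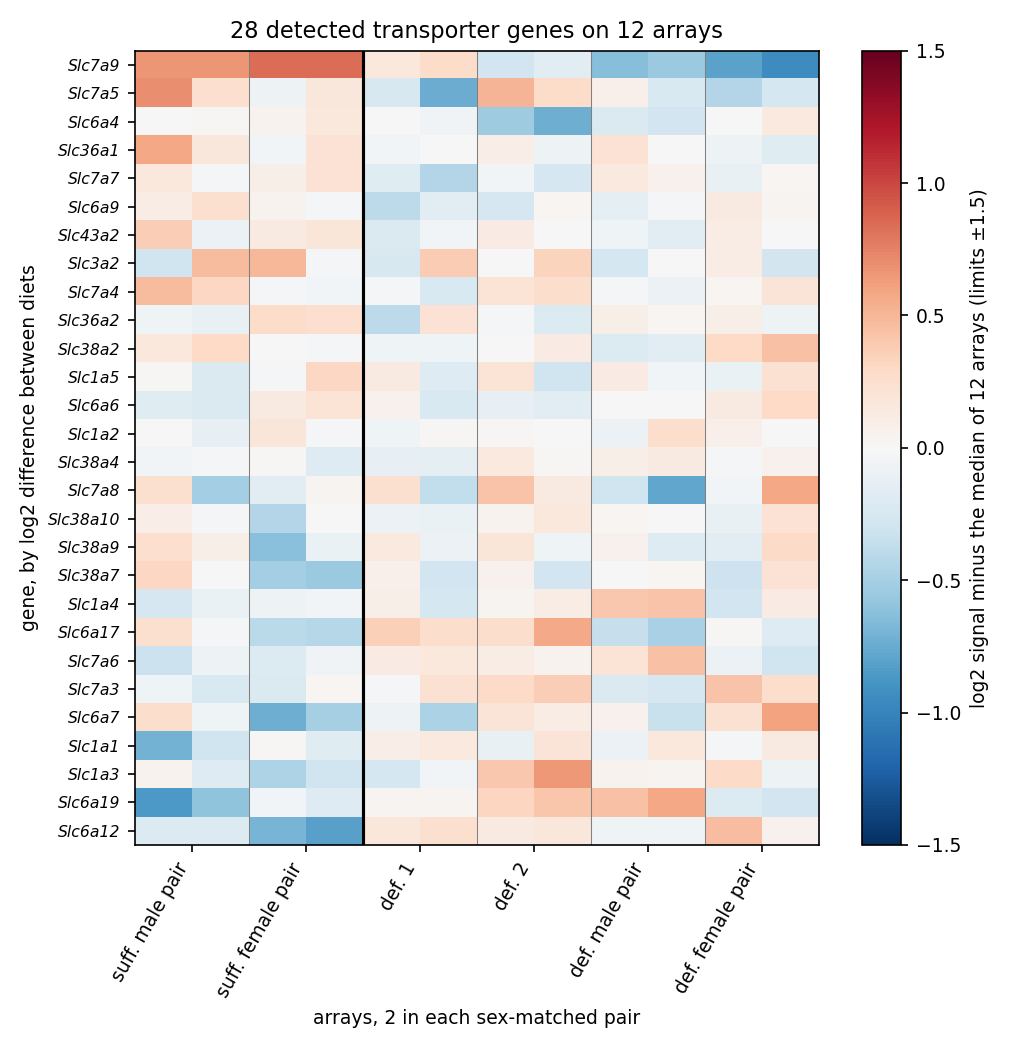
Log2 signal of the 28 detected transporter genes on the 12 arrays, as the difference from each gene's median over the arrays (colour scale, limited to 1.5 either way). Genes are ordered by their difference between diets and arrays stand by sex-matched pair, with the sufficient arrays left of the line. Slc7a9 is higher on every sufficient array than on any deficient one, and many other genes differ as much between the sufficient male and female arrays as between diets.

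Within the sufficient diet each sex has 1 pair, so sex and mouse cannot be told apart. In 15 of the 28 genes the female and male sufficient pairs differed from each other by more than the diets did, and so they did for 54.6% of all probes. For Slc6a7 the sufficient female pair was at 6.40 and the male pair at 7.11, and for Slc6a19 they were at 6.33 and 5.72. In 14 of the 28 genes the diet difference had the same sign over male and over female arrays, and in 14 the opposite sign, which 37.6% of all probes had. Neither count is a test of sex. A test of whether the difference itself varied with sex, chosen after seeing the data, passed for 0 of the 34 probes in limma (5 at unadjusted p under 0.05, smallest adjusted p 0.869). It passed for 0 of all 13497 probes, with 754 at unadjusted p under 0.05 and a smallest adjusted p of 0.36. The smallest unadjusted p-values were 0.0141 for Slc6a7 (-0.19 over male and 1.03 over female arrays) and 0.0200 for Slc6a19.

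**Figure D4:**
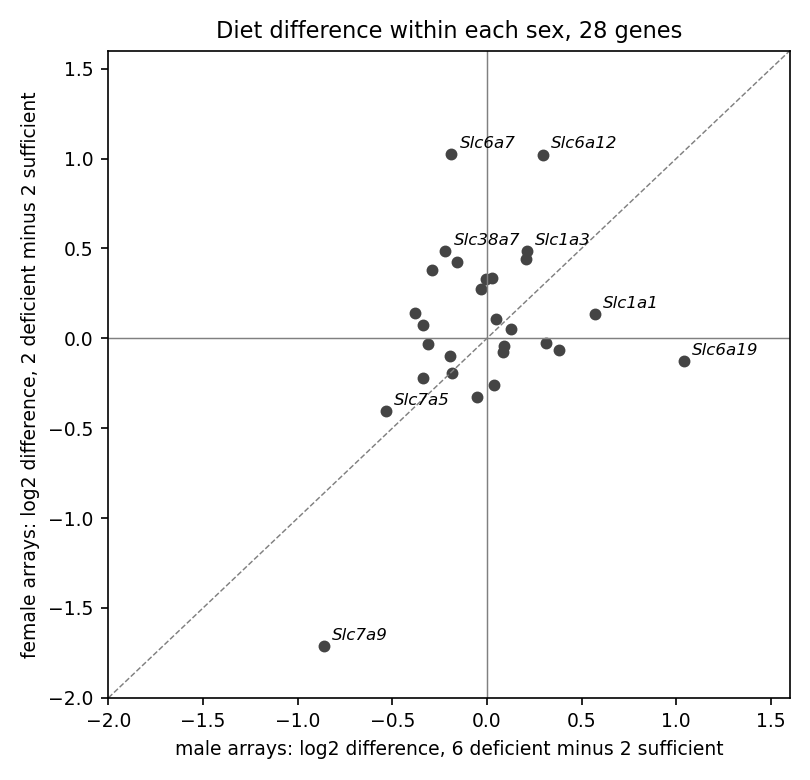
Log2 difference between the diets over male arrays (horizontal axis, 6 deficient minus 2 sufficient) and over female arrays (vertical axis, 2 deficient minus 2 sufficient) for the 28 detected genes. The dashed line marks equal differences. Slc7a9 is negative in both sexes, Slc6a19 lies at 1.04 and -0.13, and Slc6a7 at -0.19 and 1.03.

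The 24 genes that were not detected include carriers often studied in the gut. By family, 5 of 7 Slc1 genes, 1 of 1 Slc3 gene, 7 of 15 Slc6 genes, 7 of 14 Slc7 genes, 2 of 3 Slc36 genes, 5 of 10 Slc38 genes and 1 of 2 Slc43 genes were detected. The undetected genes were Slc1a6 and Slc1a7, Slc36a3, Slc38a1, Slc38a3, Slc38a5, Slc38a8 and Slc38a11, and Slc43a3. In the Slc6 family they were Slc6a2, Slc6a3, Slc6a5, Slc6a11, Slc6a13, Slc6a14, Slc6a15 and Slc6a21. In the Slc7 family they were Slc7a1, Slc7a2, Slc7a10, Slc7a12, Slc7a13, Slc7a14 and Slc7a15. Slc7a1 is a widely expressed carrier of basic amino acids, Slc6a14 a carrier of neutral and basic amino acids, and Slc38a1 a glutamine carrier. Of the 42 probes below the limit, 38 were detected on 0 arrays, and of the 34 above it 26 were detected on all 12. A probe below the limit sets no bound on the gene's RNA, since probes differ in how well they bind.

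Other genes of amino acid handling were read from lists chosen with earlier results known, with 1 probe per gene. Their counts stand against 10.8% of all probes called with labelled animals, and 28.7% at unadjusted p under 0.05. Of 7 detected brush border peptidases, 1 rose with labelled animals. This was Anpep, aminopeptidase N, which frees amino acids from peptides at the brush border, at 1.44 (SE 0.18, adjusted p 0.00427, and 0.117 with sex-matched pairs). Anpep ran from 6.16 to 7.37 on the sufficient arrays and from 7.59 to 8.71 on the deficient ones, and its difference was 2.00 over male and 0.81 over female arrays. The median of the list was 0.07. Cltrn, a partner that brings Slc6a19 to the membrane in kidney, was detected on 0 arrays.

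Of 10 detected carriers of peptides and of other amino acid routes, Ctns, the lysosomal cystine exporter, rose with labelled animals by 0.36 (adjusted p 0.0359 there, and 0.226 with pairs), and the list's median was 0.10. Slc15a1, the peptide carrier of the brush border, differed by 0.07 and did not pass. Of 25 detected genes of amino acid sensing by mTORC1, Nprl2, a part of the inhibitory GATOR1 complex, rose by 0.33 with labelled animals (adjusted p 0.0466, and 0.228 with pairs), which is 4% of the list, and the median was 0.04. None of 16 aminoacyl-tRNA synthetases passed in limma (4 at unadjusted p under 0.05 with labelled animals and 1 with pairs). Their differences were below 0 in 14 of 16 genes, with a median of -0.06, while 51.2% of all probes lay above 0. Genes of 1 pathway can vary together, so this count is not read as a test. None of these lists held a call with sex-matched pairs.

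Markers of other cell types moved with the diet as well, and their part in the differences above was not tested. The counts below stand against 10.8% of all probes called with labelled animals and 0.282% with pairs. At unadjusted p under 0.05 in limma, the shares of all probes were 28.7% and 15%. The 11 colon epithelium genes, had mean signals of 10.98 to 11.30 on the sufficient arrays and 10.74 to 11.28 on the deficient ones. Of these 11, Aqp8 (-1.16, adjusted p 0.00124 and 0.109) and Car4 (-0.73, adjusted p 0.00775 and 0.264), both of surface colonocytes, fell with labelled animals, and the other 9 did not pass. Among those 9, Krt20 was at -0.55, Krt8 at -0.04, Slc26a3 at 0.07 and Cdx2 at 0.99, and over the list 3 genes were above 0 and 8 below. All of the 5 detected genes of neurons and glia rose with labelled animals, with list means of 6.59 to 6.78 and 6.99 to 7.70, and 0 passed with pairs (5 at unadjusted p under 0.05). The glial markers Gfap and S100b were detected on 0 arrays. Of 9 fibroblast and matrix genes 6 rose with labelled animals and 1 with pairs, with list means of 8.44 to 9.04 and 9.09 to 9.77. Of 5 B and plasma cell genes 4 fell with labelled animals and 2 with pairs, with list means of 7.25 to 7.54 and 5.47 to 6.36. Of 4 T cell genes 3 fell with labelled animals, with a list median of -0.64, and 0 passed with pairs (2 at unadjusted p under 0.05). Of 5 neutrophil genes 3 fell with labelled animals, with a list median of -1.73, and 0 passed with pairs (4 at unadjusted p under 0.05). The list means were 6.12 to 6.56 and 5.24 to 5.91 for T cells, and 7.32 to 7.87 and 5.58 to 6.81 for neutrophils. None of 3 endothelial, 2 adipocyte and 5 prostate genes passed, nor did any at unadjusted p under 0.05. Smooth muscle genes had list means of 11.42 to 11.54 on the sufficient and 11.12 to 12.08 on the deficient arrays, and 0 of 6 passed in limma with either pairing, nor at unadjusted p under 0.05. Tgm4, a prostate gene, was high in the sufficient male pair and in deficient animal 2. Without these pairs, in the fit on sex-matched pairs, the difference of Slc7a9 was -1.26, of Slc6a12 0.89, of Slc6a19 0.22 and of Slc1a1 0.15, and 0 transporter probes passed.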

How the data were processed

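The data are 12 Illumina bead arrays of mouse colon RNA, extracted with Trizol, cleaned on RNeasy columns and amplified to biotinylated cRNA, per the labels' protocols. The authors deposited linear bead intensities for each array together with, per the file headers, a detection p-value for each of them. They also deposited a matrix of log2 values centred per probe, used only as an alternative; against the log2 intensity of the same arrays, centred likewise, each column correlated best with its own array (0.957 to 0.979, others at most 0.737), and its normalisation before centring is not given in the sources used here.

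The neqc function of limma 3.58.1, run in R 4.3.3 with its offset set to 16, corrected the background, normalised by quantiles and gave log2 values. The detection limit stated in the report kept 13497 of 25697 probes. Probes were named through the platform annotation (23978 named, 1719 unnamed here), and 52 of the 52 member symbols were found in RefSeq. The 2 arrays of each labelled animal, or of each sex-matched pair, were averaged, and the 6 means were fitted with lmFit and eBayes (two-sided, 4 residual degrees of freedom, prior 4.00 and 3.41). An exact permutation test over 15 splits cannot go below p = 0.0667, so none is given. The numbers of animals limit the precision. The scripts were tested on simulated data.

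Values by array are given for members past the threshold, for the 6 genes with the largest rise and the 6 with the largest fall, and for 14 carriers central to the gut where detected, with the 8 deficient arrays of genes that did not pass as their lowest, median and highest; for a gene with several probes, the one with the highest mean signal is given. Of other lists, at most 4 genes past the threshold are named; Krt20, Krt8, Slc26a3, Cdx2, Slc15a1, Cltrn, Gfap, S100b and Tgm4 stand outside this rule. The members and lists were chosen with earlier results of these data known, and the sex-matched pairs were introduced after the sexes were seen. Alternatives covered the pairing, blocks, background correction, normalisation, the filter on dim probes, the authors' matrix, the variance trend and leaving out each animal or pair. Figures were drawn with matplotlib 3.10.9.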

Additional observations from a re-analysis of the deposited data

Results flagged for a closer look

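In 56 groups of 4 deficient animals or pairs, 1 unit stood apart from the other three by Dixon's criterion in 2 groups; chance flags about 1 in 20. For Slc6a4, the serotonin carrier, labelled deficient animal 2 was at 7.81 and the others at 8.33 to 8.42, a ratio of 0.851. For Slc6a7, the proline carrier, labelled deficient animal 1 was at 6.74 and the others at 7.15 to 7.17, a ratio of 0.956. The deficient animals 3 and 4 of these groups each join a male and a female array, and with sex-matched pairs neither gene passed the critical value.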

How the results depend on the processing

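Of the 5 transporter probes called with labelled animals, 0 were called with sex-matched pairs and 2 with the authors' matrix (Slc6a12 and Slc6a19). Without a filter on dim probes 3 were called (Slc1a1, Slc6a12 and Slc6a19). At detection p under 0.01 on all 12 arrays, 3 of 18 tested were called (Slc1a1 and both Slc7a9 probes). The dimmer probes of Slc6a12 and Slc6a19 were not among these 18 and so were not tested there. No background correction, median centring, the detection floor and a variance trend each left 5. A random block for the labelled animal also left 5, but the 2 arrays of an animal correlated at -0.227 there. With sex-matched pairs as the block they correlated at 0.329. A negative correlation lowers the error of the difference, and 15.7% of all probes were called in that fit. It is therefore no check on the 5 calls. Leaving out each labelled animal gave 0 to 6 calls. The animal numbers 1 and 3 occur in both diets, and with them as a replicate block 1 probe passed (Slc6a12). The deviations of equal numbers correlated at -0.069. All of these averages except deficient animal 1 join a male and a female array, so this value cannot decide whether the numbers pair mice. The numbers were not taken to pair mice. With sex-matched pairs 0 probes passed, also with sex as a covariate, without the 2 pairs with high Tgm4 and without each pair in turn (0 to 0). Added after seeing the data, a fit on 12 arrays with the pair as a random block called 3 (Slc6a12, adjusted p 0.0338, and Slc7a9, adjusted p 0.00765 and 0.00664). The 5 called probes kept their direction under every alternative run; of the other 29 probes 23 kept it in the alternatives to the labelled animals and 14 in those to the pairs. Over all probes, calls ran from 87 to 2116 with labelled animals and from 0 to 522 with pairs. Apart from fewer animals or another number of probes tested, the cause of a lost call was not tested. Probes near the detection limit, such as those of Slc3a2, Slc1a5, Slc7a3 and Slc43a2, carry little signal above background.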
